A study of Bos taurus with 18 samples.

Results

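The 39 collagen chains described here are the genes of the deposited bovine count table whose symbol is a collagen chain name (COL, a type number, A and a chain number), stands on 1 row only, and reached at least 0.5 CPM (the count scaled to the library's total) in 3 or more of 18 libraries. The table holds 44 such symbols among 38001 genes. The 5 left out were COL6A6, which reached 0.5 CPM in 2 libraries, and COL9A1, COL10A1, COL11A1 and COL19A1, which reached it in 0. The chains just inside were COL20A1, with 3 libraries, and COL6A5 and COL8A2, with 4 each. The highest level in any library was 0.707 CPM for COL6A6 and 0.455, 0.393, 0.279 and 0.105 CPM for COL11A1, COL10A1, COL19A1 and COL9A1, beside 0.930 CPM for COL20A1, 0.912 CPM for COL6A5 and 5.25 CPM for COL8A2.

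Collagens are matrix proteins whose chains wind around each other into a helix, and the chains of each type are the products of separate genes. Fibrillar types give the stroma its tensile strength, type IV builds the sheet-like network of basement membranes under epithelia and around vessels, type VI forms beaded filaments, and FACIT collagens sit on the surface of fibrils. In the endometrium, stromal fibroblasts are the main source of interstitial collagen, while epithelium, endothelium and smooth muscle deposit basement membrane.

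The study sampled 6 Holstein cows (Bos taurus) 3 times each by poly(A) RNA sequencing of endometrial material brushed from the uterine horn beside the corpus luteum. Animals A, B and C were treated on day 4 of a synchronized cycle with a depot of 100 mg 17-hydroxyprogesterone caproate (17-OHPC, a synthetic progestin ester) and 10 mg progesterone (P4), and animals D, E and F were treated on day 4 with 100 mg P4. The 6 groups of 3 animals were treated day 7, control day 7 and control day 4 of each arm, where day 0 was estrus and the control samples came from an earlier untreated synchronized cycle of the same animals. All samples therefore shared Ovsynch synchronization, and treatment and cycle cannot be told apart. Ages were not among the labels used here.

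Library totals ranged from 29347255 to 40733544 counts, and the 39 chains together took between 597 and 8770 CPM of a library (597 CPM in animal B on day 4, 8769.6 CPM in animal C on day 4). The brushed material carried the defining transcripts of more than 1 cell type. Summed over 10 epithelial markers, libraries held 2237 to 4523 CPM on treated day 7, 2964 to 4970.1 CPM on control day 7 and 3699 to 6330.3 CPM on day 4. Summed over 9 stromal fibroblast markers, they held 100.0 to 723 CPM on treated day 7, 208 to 1282 CPM on control day 7 and 310.3 to 1816 CPM on day 4, and TCF21 was at 0 in 4 libraries. Of 10 smooth muscle and pericyte markers, NOTCH3 contributed the highest median (183 CPM), while ACTA2, TAGLN, DES and CNN1 had medians of 1.93 to 7.98 CPM. Together the 10 summed to 224 to 538 CPM on treated day 7, 134 to 597 CPM on control day 7 and 134 to 711 CPM on day 4. Endothelial markers summed to 29.0 to 113 CPM, 29.3 to 103 CPM and 25.3 to 106 CPM in the same order, and leukocyte markers to 101 to 368 CPM, 199 to 618 CPM and 215 to 624 CPM. Of these 3 lists of 10 markers each, 1 marker passed in edgeR between day 4 and control day 7, beside 10.6% of genes tested. It was CD3E of the T cell receptor complex, which fell (-0.80 ± 0.21, adjusted p = 0.0292). That call was lost with no filter on low counts (adjusted p = 0.0538), with the control groups fitted alone (0.0754), without animal C (0.103) and in 7 of 18 fits that left out 1 library (0.0505 to 0.0937). Animal C had the highest CPM of the 6 animals for 25 of 39 chains on treated day 7, 26 on control day 7 and 21 on day 4. For 18 chains it was highest at all 3 samplings. The share of all genes highest in animal C was not counted, so these counts have no background beside them. In bulk libraries such as these, fewer cells of a type and less RNA per cell cannot be told apart. Of the 39 chains, 24 reached 0.5 CPM in all 18 libraries.

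**Figure D1:**
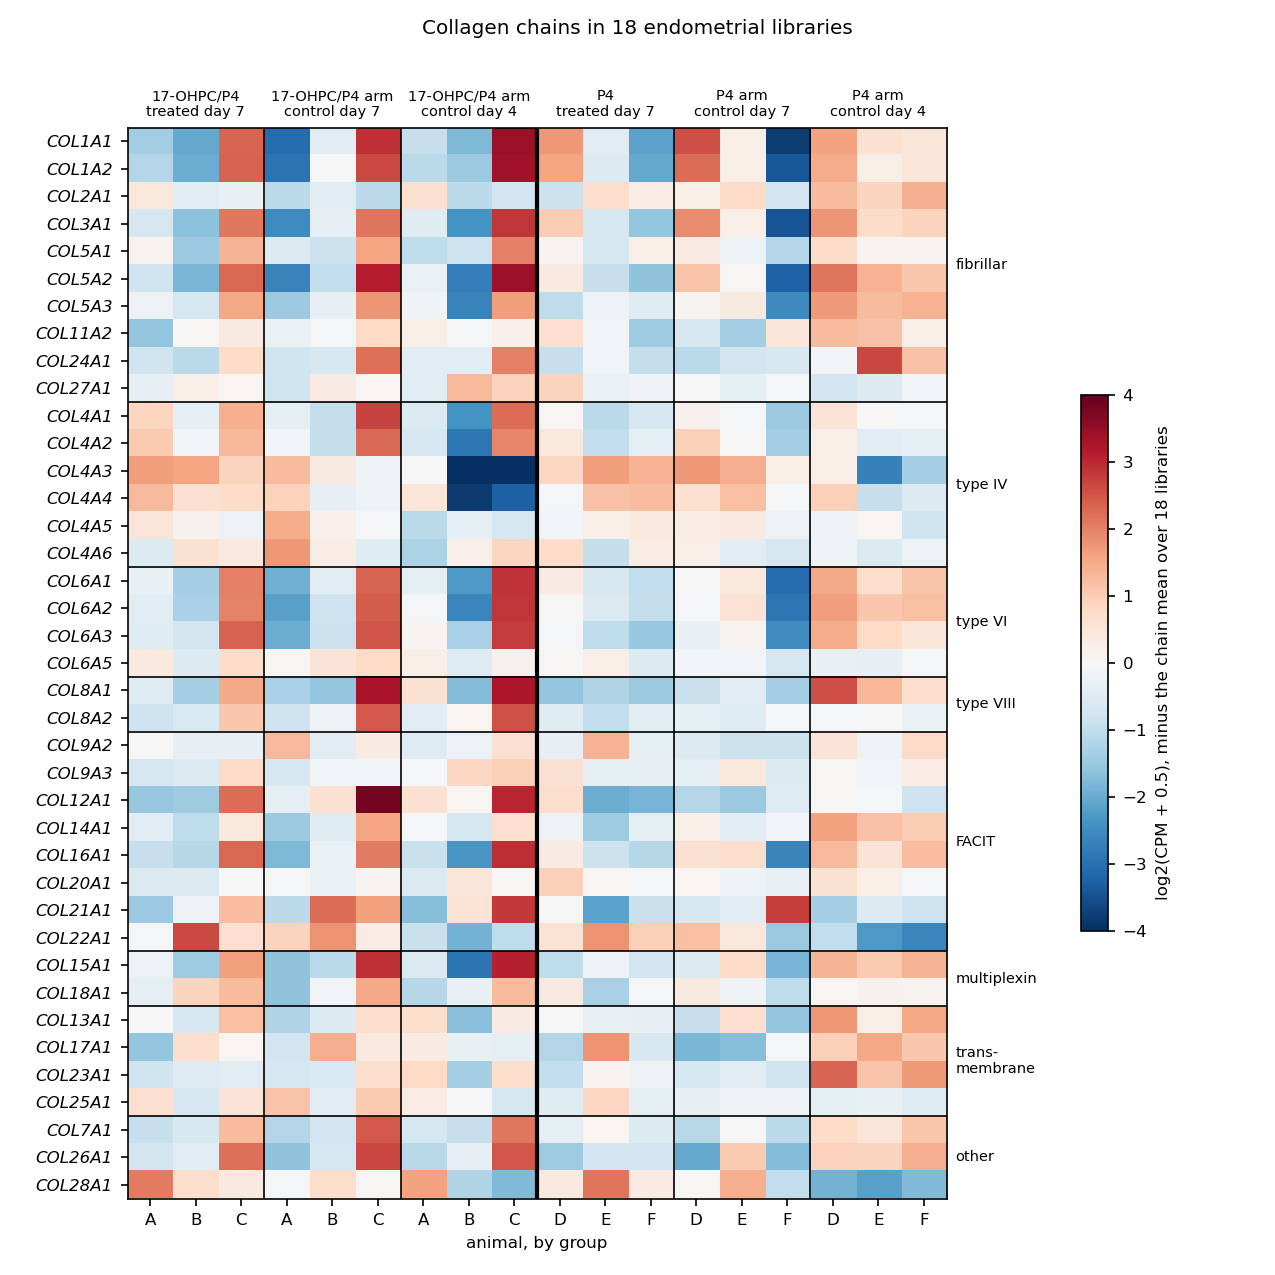
Level of each of the 39 collagen chains (rows, grouped by structural class) in each library (columns, by group and animal), as log2(CPM + 0.5) minus the mean of that chain over 18 libraries, with colours ending at -4 and 4. Animal C is dark red in most interstitial and type VI rows at all 3 samplings, and COL4A3 and COL4A4 are dark blue in animals B and C on day 4.

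Control day 7 was first compared with control day 4. With all 6 animals, 3 of 39 chains passed edgeR's quasi-likelihood test at an adjusted p under 0.05, beside 10.6% of the 19638 genes tested (2073 genes), so the count is near that background. COL22A1 and COL4A5 rose, beside 6.27% of genes that rose, and COL23A1 fell, beside 4.28% of genes that fell. At an unadjusted p under 0.05 there were 5 chains, the same 3 with COL4A3 and COL28A1, beside 26.9% of genes. Of the 39 chains, 14 had a positive log2 fold change, beside 46.1% of all genes tested. The median over the chains was -0.36 on the log2 scale, beside a median of -0.05 over all genes tested. That median turned to 0.58, with 27 of 39 chains positive, without day 4 of animal C, and moved to -1.13, with 9 of 39 positive, without control day 7 of C. A fit that blocked on the animal called 6 chains, those 3 with COL4A3 and COL28A1 higher and COL24A1 lower, beside 16.7% of genes. DESeq2, which returned an adjusted p for 38 chains, called 5, the same 3 with COL4A3 and COL28A1, beside 18.1% of genes. With 1 library left out, edgeR called between 1 and 5 chains: 1 without control day 7 of A, D or E or day 4 of C, E or F, and 5 without day 4 of A, where COL4A3, COL4A4 and COL28A1 joined COL22A1 and COL4A5. The chains that were higher in day 7 than in day 4 samples of all 6 animals were COL4A3, COL4A5 and COL22A1, and 0 chains were lower in all 6. The share of all genes that changed 1 way in all 6 animals was not counted, so these counts have no background beside them.

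**Figure D2:**
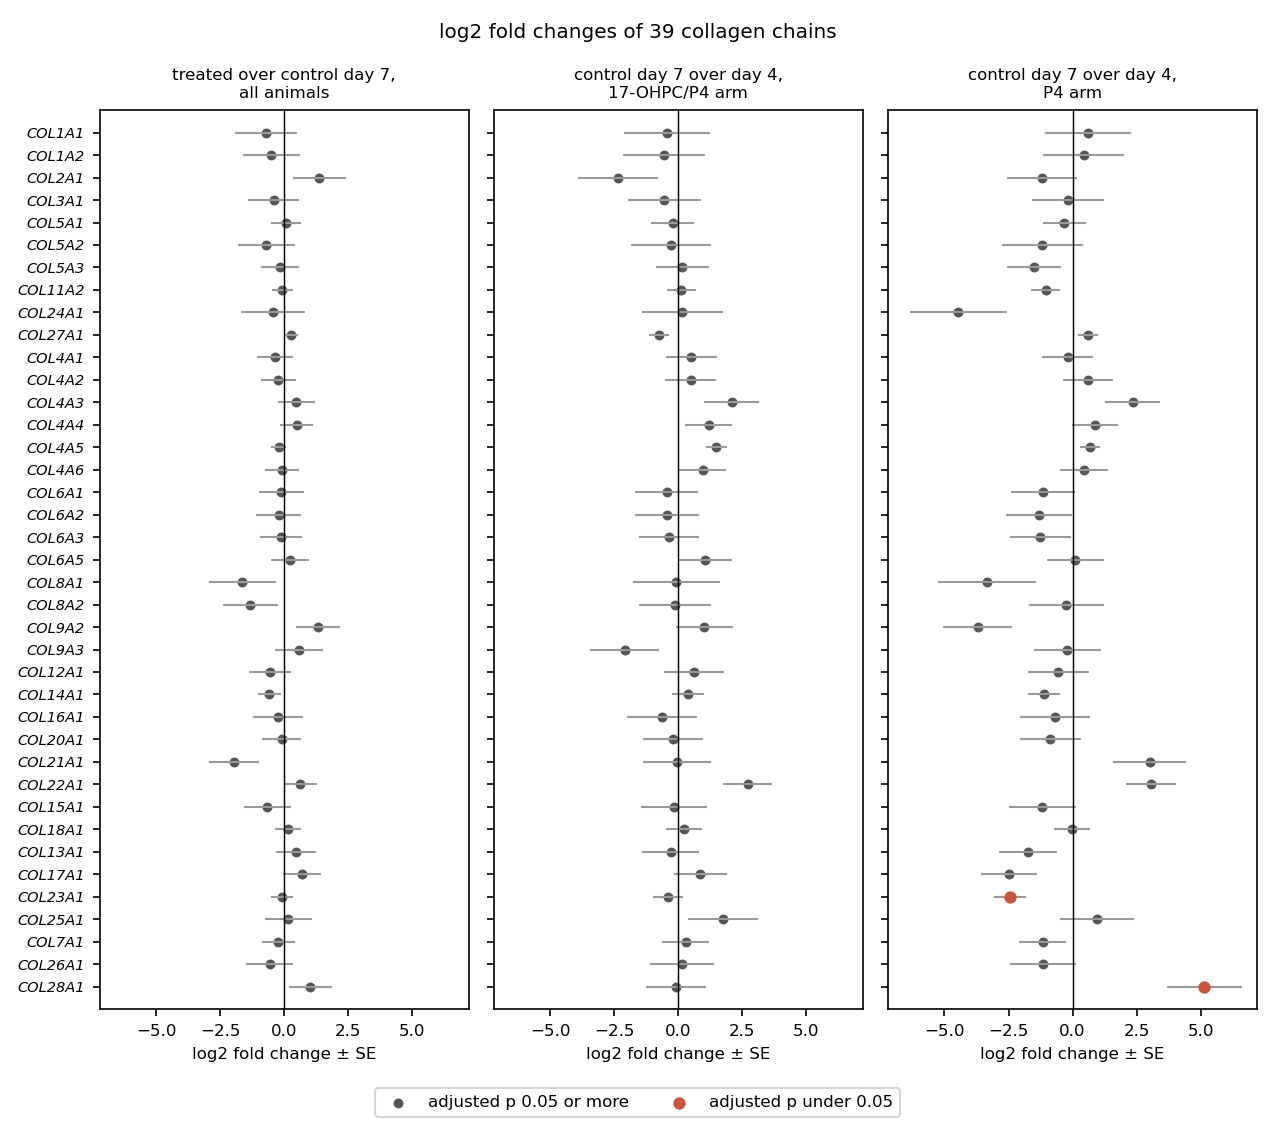
The log2 fold change ± SE of each of the 39 chains from edgeR's quasi-likelihood fit, for treated over control day 7 in all animals (left), control day 7 over day 4 in the 17-OHPC/P4 arm (middle) and in the P4 arm (right). COL23A1 at -2.45 and COL28A1 at 5.15 in the P4 arm are the chains with an adjusted p under 0.05 in these 3 panels.

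The type IV chains were the class in which every day 7 over day 4 estimate was positive: 6 of 6 chains, with a median log2 fold change of 0.86 and a range of 0.16 to 2.21, of which COL4A5 passed. The sign of COL4A1 turned without day 4 of A (-0.03), day 4 of B (-0.11) or control day 7 of C (-0.82), and that of COL4A2 without control day 7 of C (-0.22). Type IV networks exist in alternative chain combinations. The alpha1 and alpha2 chains (COL4A1, COL4A2) make the network of most basement membranes, and alpha3, alpha4 and alpha5 (COL4A3, COL4A4, COL4A5) make another known from kidney, lung and inner ear.

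COL4A3 (ENSBTAG00000021316), like COL4A4 described in full after its values were seen, had 392, 371 and 227 CPM in animals A, B and C treated with 17-OHPC/P4 and 218, 393 and 324 CPM in animals D, E and F treated with P4, against 299, 159 and 106 and 411, 339 and 148 CPM in the same animals on control day 7. On control day 4 it had 123, 5.45 and 4.09 CPM in animals A, B and C and 146, 18.3 and 48.2 CPM in D, E and F. Day 7 exceeded day 4 in 6 of 6 animals, and as a ratio by the most in B, C and E, whose day 4 levels were the lowest, and the control groups overlapped because A and D were already above 100 CPM on day 4. The means were 321 ± 80.3 CPM on treated day 7, 244 ± 123 CPM on control day 7 and 57.5 ± 62.2 CPM on day 4 (SD, n = 6 each). The treated and day 4 levels did not overlap, a difference that was not tested. For control day 7 over day 4 the log2 fold change was 2.21 ± 0.75 (SE), which did not pass in edgeR's fit without the block (adjusted p = 0.0738). In the fit blocked on the animal it passed, at 2.91 ± 0.67 (adjusted p = 0.0154), as it did in DESeq2, at 2.25 (adjusted p = 0.0102). Leaving out day 4 of animal A, where the level was already high, it passed at 3.87 (adjusted p = 0.00145).

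COL4A4 (ENSBTAG00000021310) encodes the chain that assembles with that of COL4A3. It had 341, 216 and 228 CPM in 17-OHPC/P4-treated animals A, B and C and 134, 311 and 323 CPM in P4-treated D, E and F, against 263, 109 and 119.7 and 215, 318 and 132 CPM on control day 7. Levels on day 4 were 193, 9.20 and 13.9 CPM in A, B and C and 268, 73.4 and 94.4 CPM in D, E and F. Animals B and C were again lowest on day 4, animal D was higher on day 4 than on day 7, and the groups overlapped. Its log2 fold change for day 7 over day 4 was 1.02 ± 0.64 (adjusted p = 0.337), higher in 5 of 6 animals, and it passed only when day 4 of animal A was left out (2.40, adjusted p = 0.00521).

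COL4A3 and COL4A4 stand next to each other with 0 annotated genes between them in RefSeq's ARS-UCD2.0 table. The sources used here do not say whether reads were counted by strand. The ratio of COL4A3 to COL4A4 counts, in which gene length cancels between libraries, was 0.995 to 1.72 on treated day 7 (median 1.21), 0.885 to 1.91 on control day 7 (median 1.13) and 0.249 to 0.636 on day 4 (median 0.528). Control day 7 lay above day 4 in 6 of 6 animals with no overlap, and treated day 7 also lay above day 4 in 6 of 6, while treated and control day 7 overlapped. COL4A1 and COL4A2, neighbours of the same kind, had the lower ratio on day 7: it was 0.629 to 0.887 on treated day 7, 0.485 to 1.11 on control day 7 and 0.907 to 1.17 on day 4, with control day 7 above day 4 in 1 of 6 animals. In the chains of type I the COL1A1 to COL1A2 ratio stayed within 0.796 to 1.37 over all 18 libraries. The COL6A1 to COL6A2 ratio stayed within 0.980 to 1.64. Other ratios of chains that assemble together were wider over all 18 libraries. COL5A1 to COL5A2 spanned 16.9-fold, COL4A5 to COL4A6 15.6-fold and COL6A3 to COL6A1 3.13-fold. COL4A3 to COL4A5 spanned 49.9-fold and COL4A4 to COL4A5 34.8-fold, beside 7.69-fold for COL4A3 to COL4A4. Control day 7 lay above day 4 in 4 of 6 animals for COL5A1 to COL5A2, and in 5 and 3 of 6 for COL4A3 and COL4A4 to COL4A5, with overlap. These ratios are given as descriptions, with no test.

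**Figure D3:**
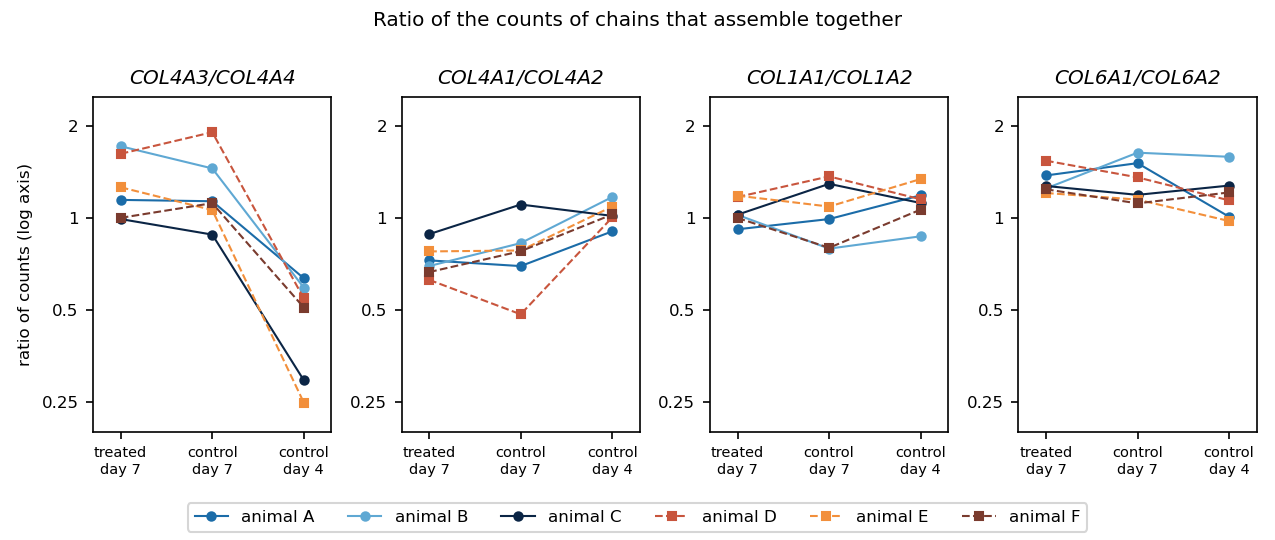
Ratio of the counts of 2 chains that assemble together (log axis), by animal, on treated day 7, control day 7 and control day 4, with 1 line per animal. The COL4A3/COL4A4 ratio lies below 0.64 in all 6 day 4 libraries and above 0.88 in the other 12, while COL1A1/COL1A2 and COL6A1/COL6A2 stay between 0.79 and 1.65. Pairs with wider ratios, such as COL5A1/COL5A2, are not drawn.

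Relative to the epithelial marker sum, COL4A3 and COL4A4 together gave 0.125 to 0.328 CPM per marker CPM on treated day 7, 0.0489 to 0.222 on control day 7 and 0.00294 to 0.0853 on day 4. None of the 10 epithelial markers passed edgeR's test between day 7 and day 4, beside 10.6% of genes tested. At an unadjusted p under 0.05 there were 2, beside 26.9% of genes. DESeq2 and the fit with the animal as a block each called 1, CLDN4, higher, beside 18.1% and 16.7% of genes. The part of cell composition in the COL4A3 and COL4A4 levels was not tested.

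COL4A5 (ENSBTAG00000014575), whose gene lies on the X chromosome in mammals, was the type IV chain that passed. It had 48.02, 39.02 and 29.6 CPM in 17-OHPC/P4-treated animals A, B and C and 32.1, 40.6 and 45.7 CPM in P4-treated D, E and F, against 96.6, 39.8 and 33.3 and 42.6, 45.1 and 29.0 CPM on control day 7. Day 4 levels were 15.97, 26.5 and 21.1 CPM in A, B and C and 31.3, 36.5 and 19.6 CPM in D, E and F. Animal A on control day 7 was the highest of all 18 libraries and animal A on day 4 the lowest, and every animal was higher on day 7. Its mean was 47.7 ± 24.7 CPM on control day 7 and 25.2 ± 7.75 CPM on day 4 (SD, n = 6 each), and its log2 fold change was 1.09 ± 0.28 (adjusted p = 0.0235). The call was lost without any 1 of 5 libraries: day 7 of animal A (0.76, adjusted p = 0.0659), D (1.08, adjusted p = 0.0599) or E (1.03, adjusted p = 0.0547), and day 4 of animal C (1.08, adjusted p = 0.0506) or F (0.97, adjusted p = 0.0621).

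COL4A1 had 214, 91.5 and 312 CPM in 17-OHPC/P4-treated animals A, B and C and 119.6, 54.8 and 73.1 CPM in P4-treated D, E and F, against 90.98, 60.5 and 755 and 132, 109 and 42.7 CPM on control day 7. Its day 4 levels were 80.1, 21.8 and 554 CPM in A, B and C and 166, 115 and 112 CPM in D, E and F. Animal C was the highest animal at each sampling, and the groups overlapped throughout. Within animals, day 7 exceeded day 4 in A, B and C and lay below it in D, E and F. COL4A2, the partner chain, had 293, 131 and 352 CPM in 17-OHPC/P4-treated animals and 190.1, 70.4 and 109.7 CPM in P4-treated animals, against 130.4, 72.9 and 680.3 and 272, 139 and 54.7 CPM on control day 7. In day 4 samples it had 88.4, 18.5 and 543 CPM in A, B and C and 165, 105 and 109 CPM in D, E and F, with animal C again highest. The day 7 over day 4 estimates were 0.16 ± 0.70 for COL4A1 (adjusted p = 0.916) and 0.53 ± 0.69 for COL4A2 (adjusted p = 0.678). COL4A6, whose gene lies beside COL4A5 on the X chromosome, ranged from 0.111 to 4.49 CPM and did not pass either, at 0.69 ± 0.66 (adjusted p = 0.556).

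**Figure D4:**
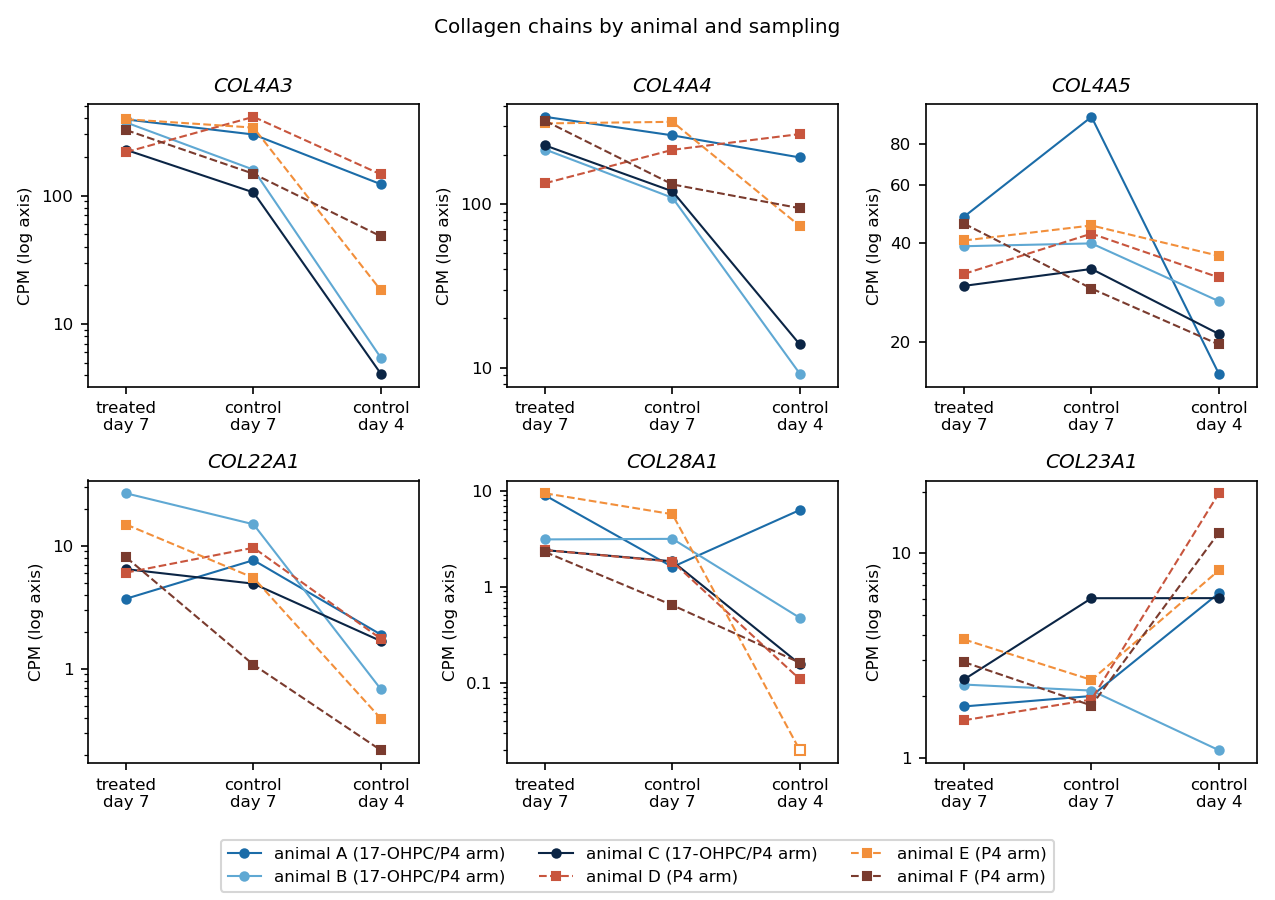
CPM (log axis) of 6 chains by animal on treated day 7, control day 7 and control day 4, with 1 line per animal, solid for the 17-OHPC/P4 arm and dashed for the P4 arm. COL28A1 had 0 counts in animal E on day 4, drawn as an open symbol at 0.02 CPM. COL4A3, COL4A5 and COL22A1 are higher on control day 7 than on day 4 in all 6 animals, and COL23A1 is lower in 5 of 6.

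Among the FACIT chains, COL22A1 rose. Type XXII collagen is known in human and mouse tissue from junctions such as that of muscle and tendon. COL22A1 (ENSBTAG00000058978) had 3.71, 26.7 and 6.45 CPM in 17-OHPC/P4-treated animals A, B and C and 6.04, 14.9 and 8.05 CPM in P4-treated D, E and F, against 7.63, 14.96 and 4.92 and 9.64, 5.49 and 1.08 CPM on control day 7. On day 4 it had 1.90, 0.681 and 1.68 CPM in A, B and C and 1.75, 0.393 and 0.217 CPM in D, E and F, a mean of 1.10 ± 0.755 CPM beside 7.29 ± 4.73 CPM on control day 7 (SD, n = 6 each). Every animal was higher on day 7, and the groups overlapped through animal F alone, whose day 7 level lay below the day 4 levels of A, C and D. Treated day 7 levels all lay above all day 4 levels, a difference that was not tested. The log2 fold change for day 7 over day 4 was 2.88 ± 0.68 (adjusted p = 0.0168). Leaving out each library in turn gave 2.55 to 3.57, and the call was lost only when day 4 of animal E was left out (2.72, adjusted p = 0.0519).

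By arm, the same contrast for COL22A1 was 2.71 ± 0.95 in animals A, B and C (adjusted p = 0.337) and 3.05 ± 0.97 in D, E and F (adjusted p = 0.0640). Blocked on the animal, the P4 arm estimate was 3.06 ± 0.87 and passed (adjusted p = 0.0387). The estimates of the arms differed by -0.34 ± 1.27 (17-OHPC/P4 minus P4, adjusted p = 0.966). The other 7 FACIT chains, which include the cartilage chains COL9A2 and COL9A3 and the fibril-associated COL12A1, COL14A1 and COL16A1, did not pass over all animals. COL21A1, uneven between animals, had 0.566, 1.95 and 6.31 CPM in 17-OHPC/P4-treated and 2.46, 0.161 and 1.06 CPM in P4-treated animals, against 0.892, 13.1 and 8.46 and 1.32, 1.69 and 19.5 CPM on control day 7. Its day 4 levels were 0.390, 3.75 and 20.02 CPM in A, B and C and 0.657, 1.498 and 1.14 CPM in D, E and F, so that B, C and F on day 7 and C on day 4 stood above the rest, and the log2 fold change was 1.48 ± 0.95 (adjusted p = 0.352).

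COL28A1 and COL23A1 were the chains that passed within the P4 arm alone. There, 2 of 39 chains passed in edgeR's test of day 7 over day 4, beside 8.65% of genes tested (1698 genes), a share below that background: COL28A1 rose, beside 4.64% of genes, and COL23A1 fell, beside 4% of genes. An unadjusted p under 0.05 was reached by 7 chains, beside 26% of genes. The fit blocked on the animal called 6 chains, beside 15.1% of genes, and DESeq2 called 5 (COL9A2, COL22A1, COL23A1, COL24A1 and COL28A1), beside 17.4%. With 1 library left out, edgeR called 0 to 3 chains in this arm: 0 without day 4 of E or F or control day 7 of D or E, 1 without day 4 of D, control or treated day 7 of B or treated day 7 of F, and 3 without day 4 of A or control day 7 of F.

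In the 17-OHPC/P4 arm edgeR called 0 of 39 chains, beside 0.0407% of genes (8 genes). At an unadjusted p under 0.05 there were 2, COL22A1 and COL4A5, beside 9.62% of genes. The fit blocked on the animal called 0 chains, beside 0.55% of genes, and DESeq2 called COL4A5 (1.51, adjusted p = 0.0249), beside 2.32% of genes. Without day 4 of animal A, edgeR called 2, COL4A3 and COL4A4. The day 4 to day 7 change was also compared between the arms, a comparison added after the data were seen. It called 0 chains in edgeR, beside 0% of genes, 0 in the fit blocked on the animal, beside 0%, and 0 in DESeq2, beside 0.46%. In edgeR 5 chains had an unadjusted p under 0.05 (COL9A2, COL17A1, COL23A1, COL27A1 and COL28A1), beside 7.71% of genes.

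COL28A1 (ENSBTAG00000024420) encodes a collagen with von Willebrand factor A domains, known in mouse from basement membranes of peripheral nerve. It had 8.98, 3.13 and 2.42 CPM in 17-OHPC/P4-treated animals A, B and C and 2.42, 9.43 and 2.31 CPM in P4-treated D, E and F, against 1.62, 3.17 and 1.85 and 1.83, 5.72 and 0.646 CPM on control day 7. On day 4 its counts were 227, 14 and 6 in A, B and C and 4, 0 and 6 in D, E and F, which is 6.33, 0.477 and 0.157 CPM and 0.110, 0 and 0.163 CPM. Animal A alone was high on day 4, and it was the 1 animal in which day 7 lay below day 4. Within the P4 arm the day 7 levels all lay above the day 4 levels, and the log2 fold change was 5.15 ± 1.45 (adjusted p = 0.0414).

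That call rested on few day 4 counts and was lost without any 1 of 8 libraries (4.04 to 5.82, adjusted p = 0.0505 to 0.144): day 4 of D, E or F, control day 7 of B, D or E, and treated day 7 of B or F. It was also lost with no filter on low counts (5.23, adjusted p = 0.0545). In the 17-OHPC/P4 arm the COL28A1 estimate was -0.09 ± 1.17 (adjusted p = 0.991), and the estimates of the arms differed by -5.25 ± 1.82 (17-OHPC/P4 minus P4, adjusted p = 0.558). Over all animals the fold change was 2.53 ± 0.91 (adjusted p = 0.0879). It passed when blocked on the animal (2.97 ± 0.88, adjusted p = 0.0407), in DESeq2 (2.60, adjusted p = 0.0142) and when day 4 of animal A was left out (4.03, adjusted p = 0.00966).

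COL23A1 (ENSBTAG00000013183), a transmembrane collagen, fell. It had 1.78, 2.28 and 2.42 CPM in 17-OHPC/P4-treated animals A, B and C and 1.53, 3.79 and 2.94 CPM in P4-treated D, E and F, against 2.01, 2.13 and 6.03 and 1.93, 2.40 and 1.80 CPM on control day 7. Its day 4 levels were 6.38, 1.09 and 6.04 CPM in A, B and C and 19.6, 8.25 and 12.6 CPM in D, E and F. Animals D, E and F were highest on day 4, animal C had nearly the same level on both days, and animal B was higher on day 7. Over all animals the log2 fold change was -1.43 ± 0.43 (adjusted p = 0.0472), and in the P4 arm it was -2.45 ± 0.63 (adjusted p = 0.0285), lower in 3 of 3 animals.

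The all-animal call on COL23A1 was lost without any 1 of 15 of the 18 libraries (-1.77 to -1.22 over all 18 omissions, adjusted p = 0.0129 to 0.125), and held only without day 4 of B, control day 7 of C or treated day 7 of D. It was also lost with RLE size factors (-1.39, adjusted p = 0.0525), with no filter on low counts (-1.37, adjusted p = 0.0702), with the control groups fitted alone (-1.37, adjusted p = 0.0913) and without animal C (-1.65, adjusted p = 0.0532). Within the P4 arm it was lost without any 1 of the 6 control libraries of animals D, E and F (-2.71 to -2.05, adjusted p = 0.0580 to 0.123). The estimates of the arms differed by 2.05 ± 0.85 (17-OHPC/P4 minus P4, adjusted p = 0.602).

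The remaining transmembrane chains and the anchoring fibril chain did not pass in edgeR's fit of all 18 libraries without the block. COL17A1, the collagen of hemidesmosomes that anchor epithelial cells, had 0.340, 3.54 and 2.07 CPM in 17-OHPC/P4-treated animals A, B and C and 0.598, 8.09 and 1.09 CPM in P4-treated D, E and F, against 0.947, 6.16 and 2.74 and 0.193, 0.260 and 1.88 CPM on control day 7. Day 4 levels were 2.56, 1.499 and 1.42 CPM in A, B and C and 4.22, 6.68 and 4.72 CPM in D, E and F. Day 7 lay below day 4 in D, E and F and in A, and above it in B and C, at -0.81 ± 0.73 over all animals (adjusted p = 0.525) and -2.48 ± 1.08 in the P4 arm (adjusted p = 0.161). Without control day 7 of animal F, the highest of the 3 in that arm, the P4 arm estimate passed (-4.21 ± 1.27, adjusted p = 0.0475).

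COL7A1, which encodes the anchoring fibrils that tie epithelial basement membrane to stroma, had 27.1, 32.7 and 125 CPM in 17-OHPC/P4-treated animals A, B and C and 38.9, 54.9 and 35.3 CPM in P4-treated D, E and F, against 22.7, 30.2 and 283 and 23.6, 51.5 and 24.9 CPM on control day 7. In day 4 samples it had 31.7, 27.02 and 224 CPM in A, B and C and 86.5, 72.1 and 112 CPM in D, E and F. Animal C was highest at every sampling, and D, E and F were each lower on day 7 than on day 4. For the P4 arm the log2 fold change was -1.16 ± 0.92 (adjusted p = 0.467). Blocked on the animal it was -1.26 ± 0.34 and passed (adjusted p = 0.0324). Without animal C it also passed, at -1.16 ± 0.30 (adjusted p = 0.0367). In the P4 arm the fit blocked on the animal also called COL8A1 (-3.34 ± 0.98, adjusted p = 0.0426), a short chain network collagen of vessels, and COL24A1 (-4.18 ± 0.87, adjusted p = 0.0116), a minor fibrillar chain. COL8A1 also passed in that arm with its 2 control groups fitted alone (-3.35 ± 0.81, adjusted p = 0.0487), and over all animals without control day 7 of C (-4.43 ± 1.30, adjusted p = 0.0411).

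Both of these chains were low, with 9 of 18 libraries at or above 0.5 CPM for COL8A1 and 5 for COL24A1. COL8A1 had 0.680, 0.154 and 4.21 CPM in 17-OHPC/P4-treated animals A, B and C and 0.0664, 0.215 and 0.109 CPM in P4-treated D, E and F, against 0.167, 0.0609 and 15.8 and 0.386, 0.715 and 0.161 CPM on control day 7. Day 4 samples held 2.01, 0 and 15.2 CPM in A, B and C and 9.42, 3.68 and 2.17 CPM in D, E and F. In animals D, E and F every day 7 level lay below every day 4 level, while animal C was high at all 3 samplings. COL24A1 had 0.113, 0 and 1.27 CPM in 17-OHPC/P4-treated animals and 0.0664, 0.484 and 0.0544 CPM in P4-treated animals, against 0.111, 0.183 and 4.46 and 0, 0.130 and 0.188 CPM on control day 7. Day 4 samples held 0.279, 0.273 and 3.83 CPM in A, B and C and 0.493, 6.28 and 1.93 CPM in D, E and F. Animal C on both control days and animals E and F on day 4 stood above the rest, and 5 of 6 animals were lower on day 7.

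The interstitial chains of types I, III, V and VI, which make up the collagen framework of the stroma, varied widely between animals at every sampling. COL1A1, a chain of type I collagen, had 50.4, 31.9 and 663 CPM in 17-OHPC/P4-treated animals A, B and C and 439, 100.1 and 29.96 CPM in P4-treated D, E and F, against 15.4, 97.8 and 1009.6 and 802, 161 and 9.20 CPM on control day 7. On day 4 it had 69.8, 38.3 and 1451 CPM in A, B and C and 407, 203 and 187 CPM in D, E and F. Animals C and D were high at every sampling and F was the lowest on control day 7, so that the highest animal exceeded the lowest 22.1-fold on treated day 7, 110-fold on control day 7 and 37.9-fold on day 4. The day 7 over day 4 estimate was 0.08 ± 1.19 (adjusted p = 0.978).

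COL1A2, the second chain of type I, had 54.7, 31.1 and 645 CPM in 17-OHPC/P4-treated animals and 374, 84.4 and 29.9 CPM in P4-treated animals, against 15.5, 123 and 778 and 585, 147 and 11.5 CPM on control day 7. Its day 4 levels were 58.7, 43.9 and 1293 CPM in A, B and C and 352, 151 and 175 CPM in D, E and F, with C highest and B lowest, as for COL1A1. COL3A1, the chain of the thin reticular fibrils, had 159, 81.4 and 1097 CPM in 17-OHPC/P4-treated animals and 518, 158 and 86.9 CPM in P4-treated animals, against 44.3, 203 and 1132 and 934, 307 and 22.6 CPM on control day 7. Its day 4 levels were 181, 48.1 and 1829 CPM in A, B and C and 869.8, 422 and 466 CPM in D, E and F, with animal C highest throughout.

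COL6A1, a chain of the type VI filaments, had 73.5, 35.6 and 364 CPM in 17-OHPC/P4-treated animals and 114, 57.2 and 45.8 CPM in P4-treated animals, against 23.6, 66.03 and 453 and 91.04, 122 and 10.3 CPM on control day 7. Day 4 levels were 69.7, 17.99 and 667 CPM in A, B and C and 261, 149 and 200.5 CPM in D, E and F, and animal C was again above all others. COL6A3, the long chain of the same filament, had 31.4, 26.5 and 229 CPM in 17-OHPC/P4-treated animals and 43.1, 21.8 and 15.4 CPM in P4-treated animals, against 10.9, 24.6 and 258 and 35.99, 48.8 and 7.61 CPM on control day 7. Its day 4 levels were 47.9, 17.72 and 315 CPM in A, B and C and 127, 78.6 and 63.1 CPM in D, E and F. Day 7 lay below day 4 in every animal but B for both chains, and the estimates were -0.81 ± 0.88 for COL6A1 (adjusted p = 0.608) and -0.81 ± 0.83 for COL6A3 (adjusted p = 0.589).

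Within an animal the 9 interstitial chains (COL1A1, COL1A2, COL3A1, COL5A1, COL5A2, COL5A3, COL6A1, COL6A2 and COL6A3) mostly shared a direction, and that direction differed between animals. From day 4 to control day 7, on the log2(CPM + 0.5) scale, 9 of 9 were lower in E and in F, 8 of 9 in A and in C, and 6 of 9 in D, while 8 of 9 were higher in B. The median change was -2.02 in A, 1.78 in B, -0.46 in C, -0.995 in D, -0.46 in E and -4.09 in F. Treated day 7 against control day 7 split the animals otherwise, with 9 of 9 higher in A and in F, 9 of 9 lower in C and in E, 8 of 9 lower in B and 6 of 9 lower in D. The summed level of the 9 chains was 260 to 3497 CPM on treated day 7, 91.4 to 4308 CPM on control day 7 and 204 to 6445 CPM on day 4.

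Stromal marker sums moved beside these chains in part. On day 4, animal C had 1816 CPM of stromal markers and 6445 CPM of the 9 chains, and animal B had 310.3 and 204 CPM. In animal F, control day 7 had 230.3 CPM of stromal markers and 91.4 CPM of the 9 chains, and day 4 had 949 and 1363 CPM. In animal A, treated day 7 had 100.0 CPM of stromal markers and 485 CPM of the 9 chains, against 208 and 159 CPM on control day 7, so that marker and collagen levels went opposite ways. Per marker CPM, the 9 chains gave 0.866 to 4.86 CPM on treated day 7, 0.397 to 3.90 CPM on control day 7 and 0.657 to 3.64 CPM on day 4. Of the 9 stromal markers, edgeR called 0 between day 7 and day 4, beside 10.6% of genes tested. At an unadjusted p under 0.05 there was 1, beside 26.9% of genes. The fit blocked on the animal called 1, FBLN1, beside 16.7% of genes, and DESeq2 called 0, beside 18.1%. The part of cell composition in the interstitial collagen levels was not tested.

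**Figure D5:**
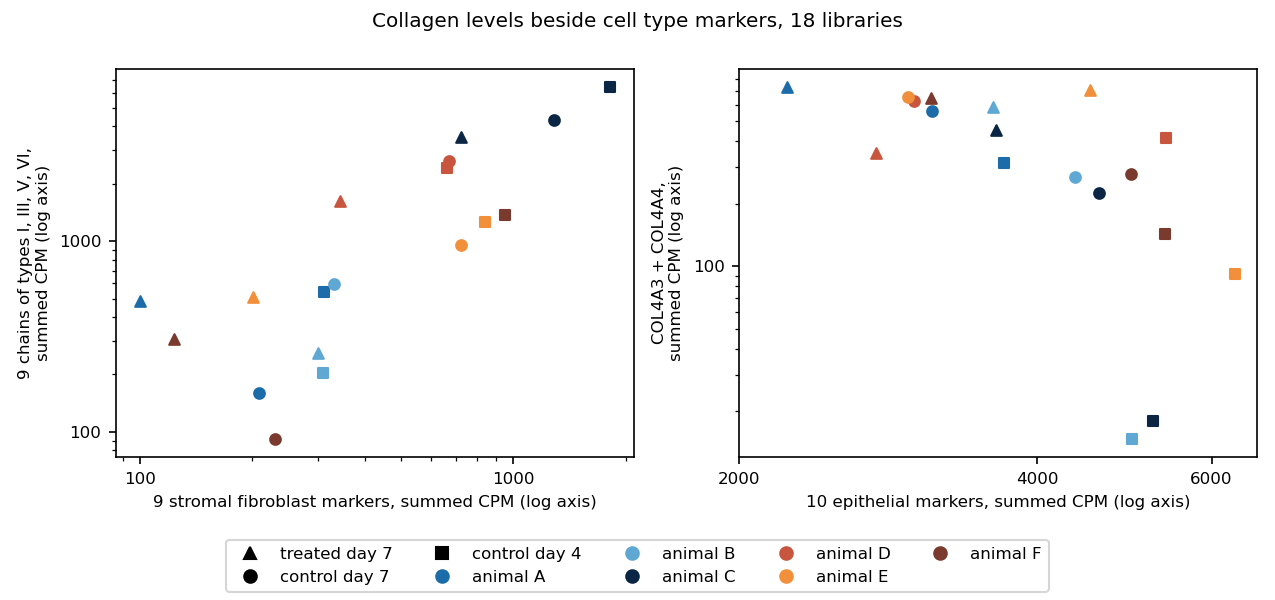
Left, summed CPM of the 9 interstitial chains against summed CPM of 9 stromal fibroblast markers; right, summed CPM of COL4A3 and COL4A4 against summed CPM of 10 epithelial markers, both on log axes, with 1 point per library, shape by sampling and colour by animal. On the left the 3 libraries of animal C hold the highest collagen sums (3497 to 6445 CPM); on the right the day 4 libraries of animals B and C lie lowest.

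Chains of other classes did not pass edgeR's test over all animals, which does not show that they were unchanged. COL18A1, the source of endostatin and a component of vascular and epithelial basement membrane, had 78.4, 192 and 251 CPM in 17-OHPC/P4-treated animals A, B and C and 131, 41.4 and 98.3 CPM in P4-treated D, E and F, against 33.5, 96.4 and 294 and 133, 94.5 and 51.1 CPM on control day 7. In day 4 samples it had 46.1, 84.03 and 248 CPM in A, B and C and 110.0, 118 and 114 CPM in D, E and F, with animal C highest at each sampling, and its day 7 over day 4 estimate was 0.10 ± 0.50 (adjusted p = 0.925). COL15A1, the other multiplexin, was -0.67 ± 0.92 (adjusted p = 0.692). COL27A1, a fibrillar chain, spanned 2.35-fold between animals on treated day 7, 2.21-fold on control day 7 and 4.23-fold on day 4, with 44.1, 66.4 and 58.8 CPM and 103, 46.5 and 50.3 CPM in treated animals of the 17-OHPC/P4 and P4 arms, against 31.7, 70.02 and 58.3 and 55.4, 43.4 and 52.9 CPM on control day 7 and 40.1, 136 and 107 and 32.2, 38.03 and 51.9 CPM on day 4. It stood lower on day 7 than on day 4 in A, B and C and higher in D, E and F. COL24A1 passed over all animals only in the fit blocked on the animal (-2.27 ± 0.57, adjusted p = 0.0227), and not without the block (-2.15 ± 1.21, adjusted p = 0.275).

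The chains not yet given by level ranged as follows over the 18 libraries, and none of them passed between day 7 and day 4 in edgeR's fit of all 18 libraries. Type V chains, which take part in starting fibrils and setting their width, reached from 15.3 to 174 CPM for COL5A1, 1.13 to 163 CPM for COL5A2 and 1.09 to 34.3 CPM for COL5A3, with the highest library from animal C in each case. COL6A2, the third chain of the type VI filament, ranged from 9.23 CPM in animal F on control day 7 to 521 CPM in animal C on day 4 (-0.87 ± 0.89, adjusted p = 0.586). COL15A1 ranged from 3.58 CPM in animal B to 268 CPM in animal C, both on day 4. The fibril-associated COL14A1 and COL16A1 ranged from 6.13 to 54.2 CPM and from 0.619 to 53.9 CPM. In the P4 arm COL14A1 passed when the 2 control groups of that arm were fitted alone (-1.12 ± 0.27, adjusted p = 0.0486), and in no other fit run.

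Among the chains known from cartilage are COL2A1, COL9A3 and COL11A2. COL11A2 ranged from 4.93 CPM in 17-OHPC/P4-treated animal A to 38.9 CPM in animal D on day 4. Its estimate for day 7 over day 4 was -0.47 ± 0.40 (adjusted p = 0.507). COL2A1 reached at most 2.28 CPM and COL9A3 at most 1.05 CPM, each with 0 counts in at least 1 library. The transmembrane chains COL13A1 and COL25A1 ranged from 0.0681 to 5.50 CPM and from 0 to 1.23 CPM. COL26A1 ranged from 0.707 CPM in animal D to 31.2 CPM in animal C, both on control day 7, and had an estimate of -0.51 ± 0.90 (adjusted p = 0.768).

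Treated day 7 was next compared with control day 7. Over all animals, 0 of 39 chains passed in edgeR, beside 0% of the genes tested, and 0 chains had an unadjusted p under 0.05, beside 4.33% of genes (850 genes). The fit blocked on the animal called 0 chains, beside 0% of genes, and DESeq2 called 0, beside 0.0102%, with 1 chain, COL21A1, at an unadjusted p under 0.05. The share of all genes at that p in DESeq2 was not counted. No chain was higher in the treated samples of all 6 animals, and none was lower in all 6, with the share of all genes again not counted. The largest positive estimates were 1.37 ± 1.02 for COL2A1, the type II chain of cartilage, and 1.31 ± 0.86 for COL9A2, and the largest negative was -1.96 ± 0.97 for COL21A1, each with an adjusted p of 0.896. The median over chains was -0.12, with 14 of 39 positive, beside a median of -0.0064 with 49.2% positive over all genes tested. It turned to 0.03 in the fit blocked on the animal and to 0.17 without animal C. With 1 library left out it ranged from -0.64, with 10 of 39 positive, without treated day 7 of C to 0.63, with 36 of 39 positive, without control day 7 of C.

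For the chains described in full between day 4 and day 7, the treated over control day 7 estimates were 0.47 ± 0.72 for COL4A3 (adjusted p = 0.934), 0.49 ± 0.64 for COL4A4 (adjusted p = 0.926) and -0.22 ± 0.27 for COL4A5 (adjusted p = 0.926). They were 0.64 ± 0.63 for COL22A1 (adjusted p = 0.906), 1.03 ± 0.83 for COL28A1 (adjusted p = 0.896) and -0.07 ± 0.42 for COL23A1 (adjusted p = 0.984). COL4A3 was higher in treated samples of 5 of 6 animals and COL28A1 in 5 of 6, with overlap in both. For COL1A1 the estimate was -0.71 ± 1.19 (adjusted p = 0.936), and the sign turned without control day 7 of C (0.64) or of D (0.28).

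By arm, edgeR called 0 of 39 chains for treated over control day 7 in animals A, B and C, beside 0% of genes, with 0 chains at an unadjusted p under 0.05, beside 1.89% of genes. In animals D, E and F it called 0, beside 0% of genes, with 1 chain, COL9A2, at an unadjusted p under 0.05, beside 3.03% of genes. COL9A2 had 0.232, 1.91 and 0.218 CPM in P4-treated animals D, E and F, against 0.129, 0 and 0 CPM on control day 7, so that the estimate of 4.14 ± 1.35 (adjusted p = 1.0) rested on counts near 0 on control day 7. The difference of the responses between the arms, 17-OHPC/P4 minus P4, called 0 chains in edgeR, beside 0% of genes, with COL9A2 again the 1 chain at an unadjusted p under 0.05, beside 1.26% of genes. DESeq2 and the fit blocked on the animal called 0 chains in each of these 3 comparisons, beside at most 0.0102% of genes (0.00512% for 17-OHPC/P4 and 0.0102% for P4 in DESeq2, and 0% in the rest).

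The arms were then compared directly. On treated day 7, 17-OHPC/P4 over P4, edgeR called 0 of 39 chains, beside 0.0102% of genes (2 genes), with 0 chains at an unadjusted p under 0.05, beside 9.13% of genes, and DESeq2 called 0, beside 1.17%, with 2 chains at an unadjusted p under 0.05. The same animals before treatment, on control day 7, gave 0 calls in edgeR, beside 0.00509% of genes (1 gene), with 2 chains, COL9A2 and COL12A1, at an unadjusted p under 0.05, beside 10.6% of genes. DESeq2 gave 0 calls there, beside 1.87% of genes, with 6 chains at an unadjusted p under 0.05. For DESeq2 the share of all genes at an unadjusted p under 0.05 was not counted, so its 2 and 6 chains have no background. The block on the animal could not be fitted for these comparisons. Median estimates over the chains were positive, at 0.44 on treated day 7 with 28 of 39 chains positive and 0.62 on control day 7 with 31 of 39 positive. Over all genes tested the medians were -0.0155 with 48.7% positive on treated day 7 and 0.056 with 54.5% positive on control day 7. Without animal C the medians over the chains turned negative, at -0.22 with 14 of 39 chains positive on treated day 7 and -0.60 with 10 of 39 on control day 7. COL12A1, a FACIT chain of dense stroma, had 5.95, 6.51 and 86.2 CPM in 17-OHPC/P4-treated animals A, B and C and 29.5, 4.25 and 4.68 CPM in P4-treated D, E and F, beside 14.2, 28.03 and 261 CPM and 7.78, 6.11 and 12.6 CPM on control day 7, with animal C above every other library of its sampling.

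Genes that fold, process and bind collagen were read beside the chains for day 7 over day 4 in all animals. Of 22 genes of collagen folding, modification and secretion, 2 rose and 1 fell, beside 6.27% of all genes tested that rose and 4.28% that fell, so the count is near that background. P4HA1, a catalytic subunit of prolyl 4-hydroxylase, averaged 52.7 ± 22.0 CPM on control day 7 and 26.9 ± 8.19 CPM on day 4 (SD, n = 6 each; 1.12 ± 0.29, adjusted p = 0.0258). TMEM38B, an endoplasmic reticulum cation channel, rose by 1.08 ± 0.29 (adjusted p = 0.0290). CRTAP, a subunit of the prolyl 3-hydroxylase complex, averaged 77.6 ± 28.6 CPM on control day 7 and 135 ± 14.3 CPM on day 4 (-0.67 ± 0.19, adjusted p = 0.0401), lower in 6 of 6 animals.

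Of 12 tested genes of procollagen processing and cross-linking, 2 rose and 1 fell, beside the same 6.27% and 4.28% of all genes. TLL2, a tolloid-like proteinase, averaged 3.94 ± 2.22 CPM on control day 7 and 0.364 ± 0.364 CPM on day 4 (3.54 ± 0.68, adjusted p = 0.00651). It was higher in 6 of 6 animals, and the call held without any 1 library. PCOLCE2, of the procollagen C-proteinase enhancers, rose by 1.33 ± 0.40 (adjusted p = 0.0485). ADAMTS14, a procollagen N-proteinase, averaged 4.96 ± 6.93 CPM on control day 7 and 16.7 ± 8.42 CPM on day 4 (-1.92 ± 0.50, adjusted p = 0.0244). In the P4 arm alone, ADAMTS14 (-3.53 ± 0.75, adjusted p = 0.0141) and P4HA2 (-1.84 ± 0.50, adjusted p = 0.0360) fell and TLL2 rose (3.71 ± 0.96, adjusted p = 0.0303), beside 4% of all genes that fell and 4.64% that rose.

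Most of these calls turned on single libraries. Over all animals, leaving out 1 library lost that of P4HA1 in 6 of 18 fits, TMEM38B in 6, CRTAP in 11, PCOLCE2 in 12 and ADAMTS14 in 5. Within the P4 arm it lost that of ADAMTS14 in 3 of 18, P4HA2 in 6, TLL2 in 4, HSPG2 in 11 and AGRN in 10, the last 2 described next. Without animal C, P4HA1 and CRTAP did not pass. With no filter on low counts, CRTAP (adjusted p = 0.0665), PCOLCE2 (0.0558) and, in the P4 arm, P4HA2 (0.0555), HSPG2 (0.0671) and AGRN (0.0598) did not pass. With the compared groups fitted alone, CRTAP (0.0830), PCOLCE2 (0.0524) and, in the P4 arm, AGRN (0.0635) did not pass. The fit blocked on the animal called 6 folding genes and 4 processing genes, beside 16.7% of all genes, and DESeq2 called 4 and 3, beside 18.1%.

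Over all animals, basement membrane partners other than collagen mostly had negative estimates, while those of the type IV chains were positive. Of all genes tested, 46.1% had a positive estimate. COL4A1 was negative in the P4 arm (-0.19), and the signs of COL4A1 and COL4A2 turned with single libraries left out. Of 15 laminins, nidogens, HSPG2 and AGRN, 1 had a positive estimate, the median was -0.73, and edgeR called 0 (5 at an unadjusted p under 0.05), while DESeq2 called HSPG2 and the fit blocked on the animal called 5 lower (AGRN, HSPG2, LAMA5, LAMB2 and LAMB3). Over all genes the shares called were 10.6% in edgeR, 18.1% in DESeq2 and 16.7% with the block. By arm, 5 of the 15 estimates were positive in the 17-OHPC/P4 arm (median -0.13) and 0 in the P4 arm (median -1.25). In the P4 arm, HSPG2, which encodes perlecan (-2.11 ± 0.60, adjusted p = 0.0428), and AGRN, which encodes agrin (-1.41 ± 0.40, adjusted p = 0.0443), fell, beside 4% of all genes that fell. DESeq2 and the fit blocked on the animal each called 6 lower there (AGRN, HSPG2, LAMA1, LAMA5, LAMB2 and LAMB3), beside 17.4% and 15.1% of genes called. Of 10 tested collagen receptors, which include integrins and discoidin domain receptors, edgeR called 0 (1 at an unadjusted p under 0.05; DESeq2 called OSCAR higher and the fit blocked on the animal MRC2 lower), and of 7 collagenases and gelatinases 0 (0 at an unadjusted p under 0.05; 0 in DESeq2 and the fit blocked on the animal). Of 15 proteoglycans and matrix partners edgeR called 0 (1 at an unadjusted p under 0.05; THBS1 was lower in DESeq2 and in the fit blocked on the animal). Between treated and control day 7 over all animals, edgeR, DESeq2 and the fit blocked on the animal called 0 genes of each of these 6 lists, with 0 at an unadjusted p under 0.05 in edgeR.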

How the data were processed

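Poly(A) RNA was sequenced from 18 endometrial brush samples of 6 cows (paired reads of 150 bases). The authors deposited 1 table of whole-number read counts per gene; per the submitters' processing notes the reads passed through cutadapt, FastQC, STAR and featureCounts, and DESeq2 is also named there. The sources used here do not give versions, the genome build, the annotation, or whether strand or read pairs were used in counting; 79.1% of counts from 1 to 5 were even. The labels tie each column to a cow and a sampling. CPM was computed here as the count divided by the library's total, with no correction for gene length, so levels are compared between samples only.

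Tests used edgeR 4.0.16 (R 4.3.3) on counts of all 18 libraries, with 1 mean per group, TMM normalization, filterByExpr and the robust quasi-likelihood F test, adjusted by Benjamini-Hochberg over 19638 genes, with calls at an adjusted p under 0.05. The SE is the log2 fold change divided by the square root of F, and edgeR's fit is meant wherever no other is named. The common biological coefficient of variation was 51.4%, and 39.4% with animals as blocks. Within-animal changes used a pseudocount of 0.5 CPM. Alternatives were RLE size factors, no filter on low counts (29409 genes), DESeq2 1.42.0, the animal as a block, the compared groups alone and each library left out. Leaving out animal C and comparing the day 4 to day 7 change between arms were added after the data were seen. The labels give the same cow for the samples that share a letter; deviations from group means correlated at -0.071 to 0.718 between samples of a cow (median 0.375, 18 pairs) and at a median of -0.144 between cows of an arm (36 pairs). The edgeR step was tested on simulated data.

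The members and lists were chosen with earlier results of these data known. Chains were named in full when called in any comparison, together with COL1A1, COL1A2, COL3A1, COL4A1, COL4A2, COL6A1, COL6A3, COL7A1, COL17A1 and COL18A1, and from each pathway list up to 4 called genes with the smallest p; other chains named with values were chosen after their values were seen. Gene neighbours come from RefSeq's table for ARS-UCD2.0, in which all 39 chains were found by symbol.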

Additional observations from a re-analysis of the deposited data

Results flagged for a closer look

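Across 6 animals at 1 sampling, or over their within-animal changes, 16 of 42 checks of 14 chains found 1 animal far from the other 5. The checks share the same 6 animals and chains that move together, and the share of all genes flagged was not counted. The count therefore has no chance rate or background beside it. In 13 of the 16 the animal was C. On control day 7 it stood alone and highest for COL4A1 (755 CPM), COL4A2 (680.3 CPM), COL6A1 (453 CPM), COL6A3 (258 CPM), COL7A1 (283 CPM) and COL23A1 (6.03 CPM). On day 4 it did so for COL1A1 (1451 CPM), COL1A2 (1293 CPM), COL4A1 (554 CPM), COL4A2 (543 CPM), COL6A1 (667 CPM), COL6A3 (315 CPM) and COL18A1 (248 CPM). Animal C also had the highest stromal marker sums at all 3 samplings, and their part in these levels was not tested.

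Animal A stood alone for COL4A5 on control day 7 (96.6 CPM), for the within-animal COL4A5 change of day 7 over day 4 (2.56 on the log2 scale) and for COL28A1 on day 4 (6.33 CPM). COL4A1 was higher on control day 7 than on day 4 in A, B and C and lower in D, E and F, a difference of 1.29 between the mean within-animal log2 changes (17-OHPC/P4 arm minus P4 arm). These were untreated samples of both arms, and edgeR's test of that difference gave 0.68 ± 1.41 (adjusted p = 0.932).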

How the results depend on the processing

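For control day 7 against day 4 over all animals, edgeR called 3 chains, DESeq2 5 and the fit with the animal as a replicate block 6; leaving out 1 library gave 1 to 5. In the 17-OHPC/P4 arm the counts were 0 in edgeR, 1 in DESeq2 and 0 to 2 with 1 library left out. In the P4 arm they were 2 in edgeR, 1 with no filter on low counts, 5 in DESeq2, 6 with the block, 4 with the compared groups alone and 0 to 3 with 1 library left out. For the other 7 comparisons every setting run gave 0. The block, whose pairing comes from the cow named in the labels, changed the calls of COL4A3, COL7A1, COL8A1, COL22A1 in the P4 arm, COL24A1 and COL28A1, and no call between treated and control day 7; comparisons between arms could not be fitted with it. Some estimates that did not pass in edgeR's fit of all libraries had signs that turned, and others did not. Day 7 over day 4, COL4A3, COL4A4, COL4A6, COL17A1, COL24A1 and COL28A1 kept their sign in every setting. Treated over control day 7, so did COL2A1, COL4A3, COL4A4, COL9A2, COL21A1, COL22A1 and COL28A1. For day 7 over day 4, the estimate turned to -0.49 for COL1A1 and -0.014 for COL18A1 with the block and to 0.44 for COL1A2 without animal C; treated over control day 7, COL23A1 turned to 0.032 with the block and 0.25 without animal C. With 1 library left out, day 7 over day 4 spanned -1.28 to 1.69 for COL1A1, -1.13 to 1.51 for COL1A2, -1.30 to 0.90 for COL3A1, -0.82 to 1.18 for COL4A1, -0.22 to 1.51 for COL4A2, -1.80 to 0.42 for COL6A1, -2.02 to 0.15 for COL6A3, -1.47 to 0.39 for COL7A1 and -0.45 to 0.58 for COL18A1. Treated over control day 7 spanned -1.93 to 0.64 for COL1A1, -0.36 to 0.11 for COL4A5 and -0.20 to 0.27 for COL23A1. The cause was not tested. Low chains such as COL9A2 and COL28A1 held 0 to 6 counts in some libraries, and up to 71 and 351 in others. Interstitial chains spread widely between animals. The part of depth and of this spread in the turned estimates was not tested.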
